A study of Mus musculus with 57 samples.

Results

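The comparison set 10 prefrontal cortex libraries of mice heterozygous for Shank2 (HT) against 8 libraries of wild-type (WT) mice, all of which had received vehicle. These 18 libraries, of the 57 in the series, were chosen by their labelled genotype and treatment, and no measured value was used to choose them. The mice were C57BL/6N, with 5 HT females, 5 HT males, 4 WT females and 4 WT males. Pups took in the vehicle with maternal milk on postnatal days 3 to 24, and cortex was collected on day 25. The remaining mice, of the same strain, age and genotypes, had received fluoxetine (10 HT, 10 WT) or lithium (10 HT, 9 WT) in the same way, and none of their libraries belongs to the vehicle comparison. The sources used here give neither the part of Shank2 that the mutant allele lacks nor which pups were littermates. P-values therefore cannot separate genotype from litter. They rest on a spread estimated over all 57 libraries, drug-treated ones included, and not on the 18 compared libraries alone.

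Shank proteins are scaffolds of the postsynaptic density of excitatory synapses. They bind Dlgap proteins, which attach them to PSD-95 and NMDA receptors, and Homer proteins, which attach them to metabotropic glutamate receptors. Loss of SHANK2 function is a known cause of autism and intellectual disability in people, and the prefrontal cortex is among the late-maturing cortical regions that serve social and flexible behaviour.

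Values are normalized estimated counts, one per gene and library, which allow comparison of a gene between libraries but not of genes with each other, since they are not divided by transcript length. The 18 totals ran from 30.4 to 32.7 M, and 21509 to 23126 genes lay above 0. Markers of the labelled tissue were high in all 18 libraries: Slc17a7, the vesicular glutamate transporter of cortical excitatory neurons, ran from 56469 to 68522 in HT and from 44452 to 61308 in WT. The WT group was the less even one. WT male 2 had the lowest median correlation with the other libraries (0.968, against a median of 0.985) and the lowest quality weight in limma (0.116), and its deviation from the other libraries fell with transcript length (rank correlation across genes -0.33). WT female 1 had the next lowest weight (0.328) and the highest mean of the olfactory bulb markers (2.18 on a log2 scale, relative to all libraries). WT females 3 and 4 and WT male 1 were high in markers of striatal projection neurons (means of 1.41, 1.90 and 2.12), while the 10 HT libraries lay between -0.59 and -0.32. The main values below come from all 18 libraries, and values without some or all of these 5 follow where they bear on a named gene or list. Without all 5, WT female 2 is the only WT female left. The female part of those values then rests on 1 WT library, and whether a gene passes there is uncertain.

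**Figure D1:**
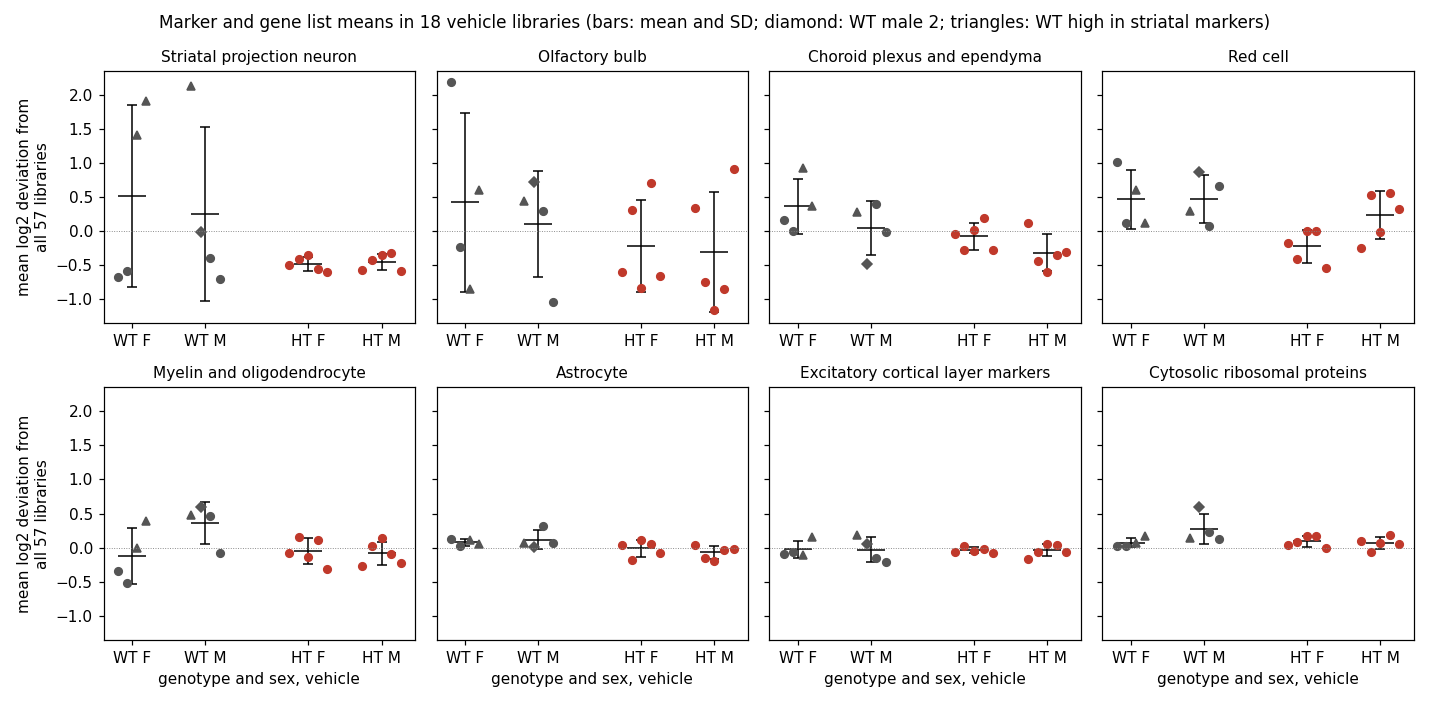
Mean log2 deviation of 8 gene lists from the mean of all 57 libraries (vertical axes), by genotype and sex in the 18 vehicle libraries; points are libraries, and bars give the mean and SD. The 3 WT libraries drawn as triangles stand above every HT library for striatal markers, and WT male 2 (diamond) is the highest library for ribosomal protein genes.

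Shank2 itself was lower in every HT library than in any WT library. Its normalized count was 3980 at the lowest, 4304 at the median and 5001 at the highest of the 10 HT libraries, against 6762, 9990 and 11064 in the 8 WT libraries. The lowest WT value belonged to WT male 2. The mean was 4388 ± 293 (SD, n = 10) in HT and 9579 ± 1519 (SD, n = 8) in WT, a ratio of 0.458 and a log2 change of -1.11 ± 0.06 (SE, adjusted p = 3.69e-19). In bulk tissue, fewer cells of a type that expresses a gene and less RNA per cell cannot be told apart. Shank2 lies at chr7:144001928-144424494 on the plus strand (GRCm38).

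Of 10 Shank, Dlgap and Homer genes tested, Shank2 fell and 9 did not pass. Shank1 was 21882 to 26457 in HT and 12057 to 26556 in WT, with a log2 difference of 0.18 ± 0.08 (adjusted p = 0.309), and 0.05 without WT male 2, which held the lowest value by far. Shank3 had a log2 difference of 0.03 ± 0.06 (adjusted p = 0.885), which was -0.03 without WT female 1, the lowest library for this gene. Across the whole table, 127 of 16659 genes were called at an adjusted p under 0.05, which is 0.762%. Of these, 88 were higher in HT (0.528%) and 39 lower (0.234%). An unadjusted p under 0.05 was reached by 2461 genes (14.8%). The libraries of both genotypes did not overlap for 9 genes, 0.054% of those tested. Shank2, Ccnd1, Rrp8 and Ephx1 lay lower in all HT libraries, and Gm26793, Hrk, Slc44a5, Pcdh19 and Matn2 lay higher. Of the 9, Matn2, which encodes the matrix protein matrilin 2, did not pass the test (log2 difference 0.33 ± 0.11, adjusted p = 0.141).

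**Figure D2:**
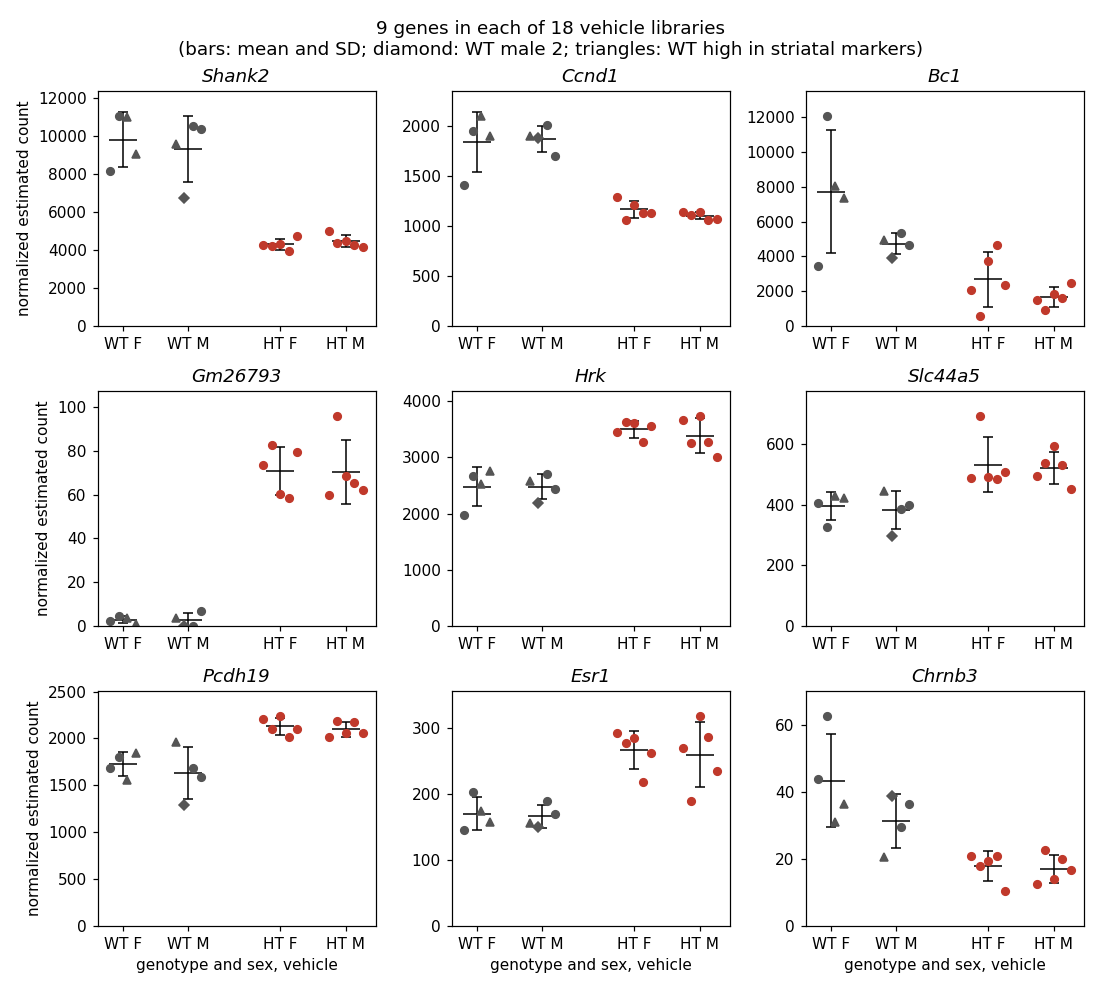
Normalized estimated counts (vertical axes, from 0) of 9 genes in the 18 vehicle libraries by genotype and sex; each point is a library, and bars give the mean and SD. The HT and WT points separate fully for Shank2, Ccnd1, Gm26793, Hrk, Slc44a5 and Pcdh19, and overlap for Bc1, Esr1 and Chrnb3.

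Besides Shank2, 3 called genes lie within 1 Mb of it on chromosome 7. Gm26793, a noncoding gene annotated as antisense, 470 kb away (chr7:144894560-144897461, minus strand), was close to 0 in WT and rose in HT. HT libraries held 58.5 to 95.9 with a median of 66.9, and WT libraries 0 to 6.66 with a median of 2.91. The group means of 70.7 ± 12.2 and 2.67 ± 2.33 differ 26.5-fold, and the log2 change was 4.60 ± 0.32 (adjusted p = 1.72e-15). The gene overlaps Fgf15 on the other strand, and as no source used here says whether reads were counted by strand, reads of the pair cannot be told apart.

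Ccnd1 encodes cyclin D1, which drives entry into the cell cycle, and lies 505 kb from Shank2 (chr7:144929931-144939925, minus strand). It fell in HT, where it ran from 1062 to 1294 with a median of 1135, while WT ran from 1409 to 2102 with a median of 1905. The log2 change was -0.70 ± 0.07 (adjusted p = 2.64e-09). No other gene of the list of D cyclins and cell cycle entry passed, 23 of 24. Its relatives Ccnd2 (0.17 ± 0.07, adjusted p = 0.226) and Ccnd3 (-0.17 ± 0.07, adjusted p = 0.223) lay on opposite sides of 0. Ccnd1 overlaps LTO1 on the other strand, whose log2 difference had the opposite sign (0.35 ± 0.10, adjusted p = 0.0794).

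Bc1 is a short RNA polymerase III transcript that neurons carry into dendrites, where it represses translation. It lies 490 kb from Shank2, and its sequence is shown because the libraries were made with a kit that selects poly(A) RNA and this short RNA carries internal runs of A. The sequence, from the GENCODE vM21 transcripts (chr7:144914470-144914637, plus strand, GRCm38), has 168 bases, of which 70 are A, and its 2 runs of at least 6 A are in capitals, the longest of 23 bases.
Bc1: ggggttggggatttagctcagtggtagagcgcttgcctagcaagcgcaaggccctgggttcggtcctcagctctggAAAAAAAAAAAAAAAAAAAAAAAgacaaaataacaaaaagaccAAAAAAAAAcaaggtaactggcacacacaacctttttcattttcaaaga
Bc1 values spread widely. HT libraries held 582 at the lowest, 1959 at the median and 4669 at the highest, and WT libraries 3437, 5161 and 12067, so that the groups overlapped. The log2 change was -1.63 ± 0.27 (adjusted p = 0.000913), or -2.06 (adjusted p = 0.0112) without the 5 WT libraries that stand apart. Repeats of the ID family derive from this gene, and how the counting shared reads among such copies was not tested.

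Of 27 genes tested within 1 Mb, including Shank2 itself, 4 were called, a larger share than the 0.762% of all genes. Cttn, the nearest gene at 11.2 kb, which encodes the actin regulator cortactin, had a log2 difference of 0.11 ± 0.04 (adjusted p = 0.146). Mrgprf (0.52 ± 0.15, adjusted p = 0.0834) and Tpcn2 (-0.46 ± 0.15, adjusted p = 0.125), 876 and 762 kb away, did not pass under vehicle. On the whole of chromosome 7, these 4 included, 10 of 1305 genes tested were called, 0.766%, close to the 0.762% of all genes. The 6 beyond 1 Mb were Lrrc27, Rrp8, Stard10, Cyp2s1, Fxyd1 and Grm5.

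Outside that region, the clearest rise was that of Hrk (chr5:118164648-118189478), which encodes a BH3-only protein that promotes apoptosis by binding BCL2 and BCL-XL. The 10 HT libraries ran from 3002 to 3734 with a median of 3506, and the 8 WT libraries from 1970 to 2752 with a median of 2553. No HT library reached into the WT range, and the log2 change was 0.48 ± 0.07 (adjusted p = 2.62e-05). The other 19 of 20 genes of the BCL2 family and apoptosis did not pass, and their list had a median log2 difference of 0.01. Without the 5 WT libraries that stand apart, the log2 value of Hrk was 0.39 (adjusted p = 0.124), with 3 WT libraries left.

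Slc44a5, a member of the choline transporter-like family, and Pcdh19, a protocadherin of neuronal cell contacts that is mutated in an X-linked epilepsy of girls, were the other called rises without overlap outside chromosome 7. Slc44a5 ran from 451 to 693 in HT with a median of 501 and from 298 to 446 in WT with a median of 402 (log2 change 0.44 ± 0.08, adjusted p = 0.00364). Pcdh19 ran from 2012 to 2239 in HT with a median of 2101 and from 1285 to 1961 in WT with a median of 1684 (log2 change 0.35 ± 0.07, adjusted p = 0.00514). For both genes every HT library lay above every WT library. WT male 2 was the lowest library for both genes, and without it the changes were 0.38 (adjusted p = 0.0188) and 0.29 (adjusted p = 0.0225).

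The promoters of Hrk, Slc44a5 and Pcdh19 are shown because these 3 genes rose together without overlap between the genotypes. Each is the 250 bases before the RefSeq start (GRCm38.p6), on the strand of the gene, with matches to GGGCGG, the GC box, on either strand in capitals.
Hrk (chr5:118169514-118169763, plus strand): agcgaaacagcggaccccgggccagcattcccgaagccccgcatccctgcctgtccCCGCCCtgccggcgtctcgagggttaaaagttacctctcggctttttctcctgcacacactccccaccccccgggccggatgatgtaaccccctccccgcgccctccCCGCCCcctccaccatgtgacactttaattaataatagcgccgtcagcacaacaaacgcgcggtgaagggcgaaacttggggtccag
Slc44a5 (chr3:153973186-153973435, plus strand): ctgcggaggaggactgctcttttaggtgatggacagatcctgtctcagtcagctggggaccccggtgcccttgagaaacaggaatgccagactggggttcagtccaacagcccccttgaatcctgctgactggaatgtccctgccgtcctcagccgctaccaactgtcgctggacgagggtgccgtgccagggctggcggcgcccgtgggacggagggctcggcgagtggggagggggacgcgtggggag
Pcdh19 (chrX:133688994-133689243, minus strand): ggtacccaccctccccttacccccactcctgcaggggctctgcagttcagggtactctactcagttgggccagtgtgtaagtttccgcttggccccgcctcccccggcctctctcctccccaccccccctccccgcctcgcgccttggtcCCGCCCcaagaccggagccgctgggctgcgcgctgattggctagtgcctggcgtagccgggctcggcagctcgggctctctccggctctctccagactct
GGGCGG occurs 2 times before Hrk, 1 time before Pcdh19 and not before Slc44a5, and 32.7% of 32851 mouse promoter windows of the same length hold it. The GC content was 63.2, 65.2 and 69.2% for Hrk, Slc44a5 and Pcdh19, against a median of 52.4% over those windows. The cAMP response element TGACGTCA (1.55% of windows) and the E-box CACGTG (6.02%), searched on both strands, were not found in the 3 windows. Nor was a pattern modelled on the MEF2 motif that allows any base at its middle positions (3.2%), searched in the same way. Other forms of the MEF2 motif were not searched. The broader motif CANNTG, of which CACGTG is a special case, was present in all 3 and in 66.2% of windows. A match is a description of the letters in these windows and not of a bound site.

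Esr1 encodes estrogen receptor alpha, a hormone-activated transcription factor. It was 189 to 317 in HT with a median of 273 and 145 to 202 in WT with a median of 164. The groups overlapped in one HT library only, male 2, which at 189 lay below the highest WT value. The log2 change was 0.64 ± 0.11 (adjusted p = 0.00231), and the other 26 of 27 steroid and related nuclear receptor genes did not pass. Without the 5 WT libraries that stand apart, Esr1 did not pass (0.45, adjusted p = 0.576). The glucocorticoid receptor gene Nr3c1 stood at 0.20 ± 0.08 (adjusted p = 0.211).

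Chrnb3, a beta subunit of nicotinic acetylcholine receptors, was expressed at a low level and fell in HT. HT libraries held 10.4 to 22.6 with a median of 18.7, WT libraries 20.7 to 62.8 with a median of 36.4, and the ranges overlapped between 20.7 and 22.6. The log2 change was -1.03 ± 0.20 (adjusted p = 0.0109), but the gene did not pass without the 2 WT libraries of lowest weight (-0.96, adjusted p = 0.0632) or without all 5 (-1.36, adjusted p = 0.0527). Of 14 acetylcholine receptor genes tested, the other 13 did not pass, among them Chrna3 (-0.65 ± 0.33, adjusted p = 0.356).

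In all, 21 of the 127 genes were called with each of the 18 libraries left out in turn. Besides Shank2, Gm26793, Ccnd1, Bc1, Hrk, Slc44a5, Pcdh19, Esr1 and Chrnb3, they included 7 more rises. Zbtb18, a transcriptional repressor needed for cortical neuron development, had a median of 10490 in HT and 8232 in WT (log2 change 0.30 ± 0.06, adjusted p = 0.0134). Syt4, a synaptotagmin of dense-core vesicles, had 6426 and 5469 (0.22 ± 0.05, adjusted p = 0.0134). Creg2, a secreted brain glycoprotein, had 5887 and 4870 (0.27 ± 0.05, adjusted p = 0.0109). The remaining 4 were Sec23a, of the COPII coat of vesicles leaving the endoplasmic reticulum (0.19 ± 0.04), the small GTPase Arl15 (0.31 ± 0.06), the docking protein Dok4 (0.22 ± 0.05) and Gm9954, an unconfirmed transcript (0.33 ± 0.07). In each of these 7, the highest WT library lay above the lowest HT library. Most of the 21 genes did not pass with only the 18 vehicle libraries in the fit, where 8 genes were called in all.

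The other 5 of the 21 fell. Rrp8, a nucleolar methyltransferase of ribosomal RNA, ran from 138 to 285 in HT and from 295 to 406 in WT without overlap (log2 change -0.49 ± 0.10, adjusted p = 0.0134). Rasgrp2, an exchange factor that activates Rap1, had a median of 618 in HT and 898 in WT (-0.50 ± 0.10, adjusted p = 0.0115). Actn2, an actin-crosslinking alpha-actinin of dendritic spines, had 497 and 665 (-0.45 ± 0.10, adjusted p = 0.0168), and Chn2, a Rac-inactivating chimaerin, had 1009 and 1277 (-0.33 ± 0.07, adjusted p = 0.0168). Stac2, an adaptor of voltage-gated calcium channels, had 1599 and 2083 (-0.41 ± 0.09, adjusted p = 0.0155). Rasgrp2, Actn2 and Chn2 did not pass without the 3 WT libraries high in striatal markers, with log2 values of -0.36 (adjusted p = 0.114), -0.25 (adjusted p = 0.182) and -0.23 (adjusted p = 0.133). Of the 7 rises, Zbtb18 (0.22, adjusted p = 0.119) and Gm9954 (0.28, adjusted p = 0.0701) did not pass there either, while Rrp8 and Stac2 passed, at -0.49 and -0.48.

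Of the 21 genes, 16 were called without those 3 libraries, 11 without the 2 WT libraries of lowest weight and 6 without all 5. The 6 were Shank2, Gm26793, Ccnd1, Bc1, Slc44a5 and Dok4, the last at 0.36 (adjusted p = 0.000385). Hrk, Esr1, Rasgrp2, Rrp8 and Actn2 were called without the 2 but not without all 5. The 10 genes that did not pass without the 2 were Pcdh19 (0.29, adjusted p = 0.0603), Chrnb3, Syt4 (0.18, adjusted p = 0.0761), Creg2 (0.22, adjusted p = 0.0769), Zbtb18 (0.29, adjusted p = 0.0671), Arl15 (0.28, adjusted p = 0.0694), Gm9954 (0.27, adjusted p = 0.093), Sec23a (0.17, adjusted p = 0.0769), Stac2 (-0.37, adjusted p = 0.0835) and Chn2 (-0.33, adjusted p = 0.0584).

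The other 106 called genes lost their call with at least 1 library left out. Among receptors and ligands, the neuropeptide gene Grp, which encodes gastrin-releasing peptide, rose (median 240 in HT, 158 in WT, log2 change 0.51 ± 0.11, adjusted p = 0.0203). So did Rxfp1, the relaxin receptor (0.36 ± 0.09, adjusted p = 0.0413), while Ntsr2, a neurotensin receptor of astrocytes, fell (-0.26 ± 0.07, adjusted p = 0.0408). The other 45 of 48 neuropeptide and receptor genes did not pass. Nrtn, which encodes the GDNF family ligand neurturin, fell (median 15.4 in HT, 28.9 in WT, -0.86 ± 0.20, adjusted p = 0.0264), and 22 of 23 neurotrophic genes did not pass. Tph2, the rate-limiting enzyme of serotonin synthesis in the brain, fell from a low level (median 14.9 in HT, 24.8 in WT, -0.65 ± 0.17, adjusted p = 0.0405), and 17 of 18 genes of serotonin receptors and synthesis did not pass. Nrtn, Tph2, Ntsr2 and Rxfp1 did not pass without WT male 2 (adjusted p = 0.0712, 0.0832, 0.0832 and 0.13), and Grp did (log2 change 0.59).

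Genes of the excitatory synapse mostly lay slightly above 0 and seldom passed. Of 6 NMDA receptor subunit genes, Grin3a rose (median 2270 in HT, 1945 in WT, log2 change 0.24 ± 0.06, adjusted p = 0.0405) and 5 did not pass, with Grin2b at 0.41 ± 0.11 (adjusted p = 0.0689). Of 21 AMPA receptor subunit and auxiliary genes, Gria3, a subunit gene (0.18 ± 0.04, adjusted p = 0.0347), and Nptxr, which encodes a pentraxin receptor that clusters AMPA receptors (0.23 ± 0.06, adjusted p = 0.034), rose. The metabotropic receptor gene Grm5 rose (0.29 ± 0.07, adjusted p = 0.034), and the other 6 of its list did not pass. Prickle2, a planar polarity protein of the postsynaptic density, rose (0.23 ± 0.05, adjusted p = 0.023), and 34 of 35 genes of postsynaptic MAGUK and signalling proteins did not pass. The list medians were 0.09 for NMDA receptors, 0.06 for AMPA receptors, 0.13 for metabotropic receptors and 0.09 for the MAGUK list, beside -0.003 over all genes tested. Without WT male 2 these medians were 0.05, 0.07, 0.08 and 0.06, and without all 5 WT libraries that stand apart -0.004, 0.06, 0.07 and 0.04. In females they were -0.01, 0.05, -0.10 and 0.05, and in males 0.19, 0.09, 0.23 and 0.11.

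None of these 5 rises passed without 1 library. Without WT male 2, Grin3a (0.18, adjusted p = 0.14), Gria3 (0.14, adjusted p = 0.116), Nptxr (0.20, adjusted p = 0.11), Grm5 (0.19, adjusted p = 0.112) and Prickle2 (0.17, adjusted p = 0.0823) did not pass. The same held for Cacna2d1, a calcium channel subunit (0.21 ± 0.05 with all libraries, 0.15 without it, adjusted p = 0.109), and for Trpc5, a cation channel gene on the X chromosome (0.48 ± 0.12 with all, 0.29 without it, adjusted p = 0.0949). Pcdha1, a clustered protocadherin whose isoforms share exons, so that its estimated counts are uncertain, was at 0.49 ± 0.11 with all libraries and 0.44 without it (adjusted p = 0.0746). Of the 88 genes higher in HT, 53 (60.2%) had WT male 2 as their lowest WT library, which was so for 28.5% of all genes tested. The choice of genes with low WT values favours such a difference. The median transcript length was 2752.5 bases for the 88, 1577 bases for the 39 lower genes and 1560 bases for all genes tested. The part of transcript length in these calls was not tested.

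In 4 long lists without a called member, most genes lay on one side of 0. Of 79 autism risk genes, 63 had a log2 difference above 0 and none passed. Scn2a, the sodium channel gene with the smallest p in the list, had 0.30 ± 0.08 (adjusted p = 0.0506). Of 50 synaptic adhesion genes, 40 lay above 0, with a median of 0.11, and none passed, Slitrk3 being nearest (0.16 ± 0.04, adjusted p = 0.0592). Of 79 cytosolic ribosomal protein genes, 4 lay above 0 (median -0.09), and of 79 nuclear genes of oxidative phosphorylation, 5 did (median -0.07). In females the medians were -0.02 for the autism list, 0.02 for the ribosomal list and 0.04 for oxidative phosphorylation, and in males 0.18, -0.20 and -0.18. Without WT male 2 they were 0.04, -0.05 and -0.01 over both sexes. Over all genes tested, 49% lay above 0.

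Channels, cell contact and the presynaptic side gave single calls. Cacna2d1 was the called member among 25 sodium and calcium channel genes and Trpc5 among 15 TRP channel genes, and none of 9 kainate and delta receptor genes passed. Of 56 clustered protocadherins, which give neurons their surface identity, Pcdha1 rose and 55 did not pass. Their median was 0.08 over both sexes, -0.06 in females and 0.22 in males, and 0.02 without WT male 2. Of 49 genes of the presynaptic vesicle cycle, Syt4 rose and 48 did not pass, with 39 above 0. None of 13 mitochondrially encoded genes passed, and all 13 lay below 0 (median -0.15).

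Markers of inhibitory neurons, activity and glia gave few calls. None of 27 interneuron markers passed, with a median of -0.14, or 0.04 without the 5 WT libraries that stand apart, and Slc32a1, the vesicular GABA transporter, had the smallest p (-0.35 ± 0.10, adjusted p = 0.0776). None of 14 GABA-A receptor genes and none of 45 potassium and HCN channel genes passed either. Of 21 immediate early genes, 3 lay above 0 and none passed (median -0.17, or -0.02 without the 5 WT libraries), and Npas4, induced by neuronal activity, had 379 to 831 in HT and 470 to 1766 in WT (-0.64 ± 0.23, adjusted p = 0.157). Of 29 excitatory layer markers, Pcp4, a calmodulin-binding protein of deep-layer neurons, fell (median 4882 in HT, 5646 in WT, -0.33 ± 0.08, adjusted p = 0.0337, and -0.26 without WT male 2, adjusted p = 0.113). Of 26 astrocyte markers, Ntsr2 and Prdx6, a peroxiredoxin (-0.21 ± 0.05, adjusted p = 0.034), fell and 24 did not pass. Without WT male 2, Ntsr2 and Prdx6 did not pass either. Of the 26, 2 lay above 0, and the median was -0.14, or -0.13 without WT male 2 and -0.12 without the 5 WT libraries. None of 16 endothelial, 11 mural, 15 leptomeningeal and 11 oligodendrocyte precursor markers passed, and all 15 leptomeningeal markers lay below 0 (median -0.20). None of 19 myelin and 24 microglia markers passed, and the myelin median was -0.21, or -0.02 without the 3 WT libraries high in striatal markers and 0.07 without all 5.

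**Figure D3:**
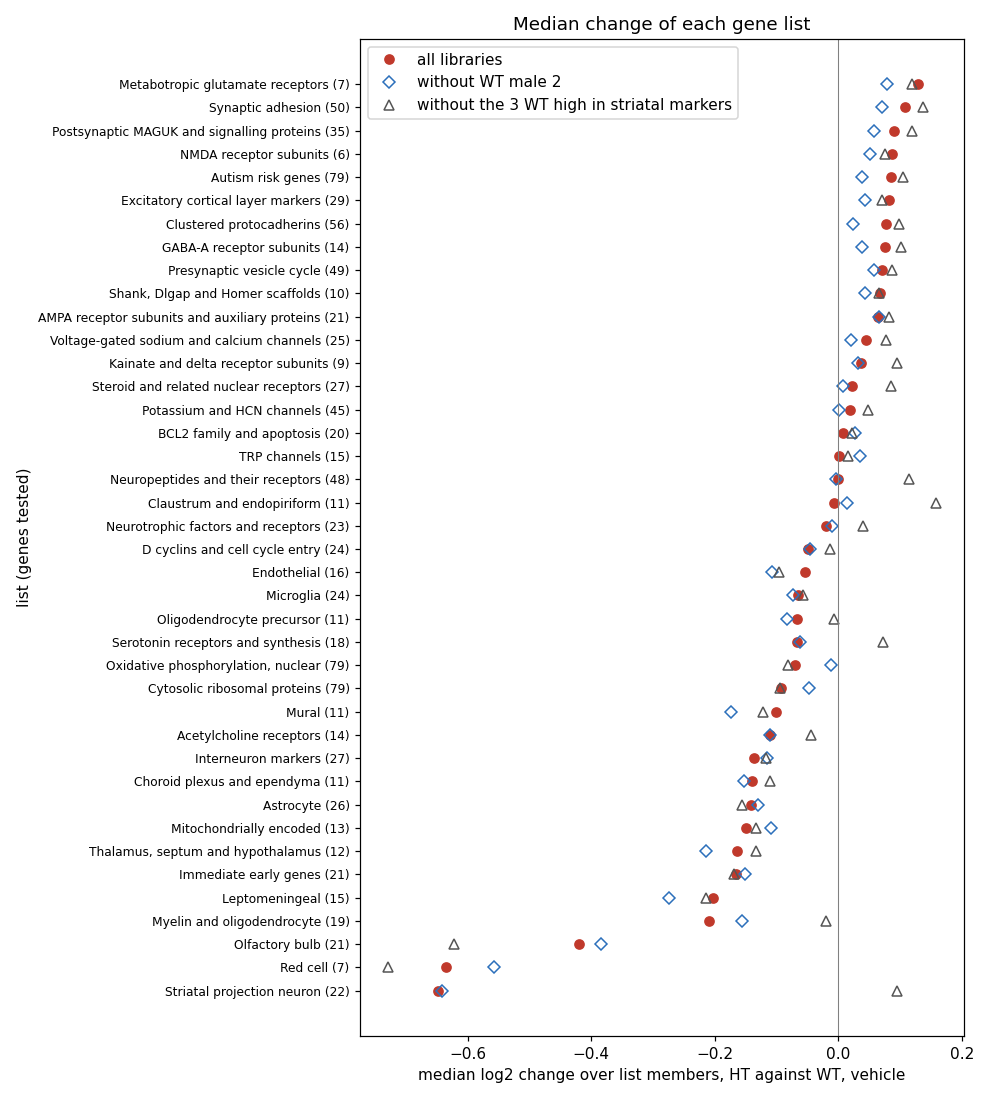
Median log2 difference between HT and WT vehicle libraries (horizontal axis) for each gene list, with the number of genes tested in brackets, over all libraries and with WT male 2 or the 3 WT libraries high in striatal markers left out. The striatal list moves from -0.65 to 0.09 without those 3 libraries, and the autism list moves from 0.09 to 0.04 without WT male 2.

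Markers of striatum and choroid plexus were uneven among the WT libraries. Of 22 striatal markers, 1 lay above 0 and none passed, with a median of -0.65. Drd1, the D1 dopamine receptor gene of striatal neurons, was 760, 1139 and 1270 in WT females 3 and 4 and WT male 1, 130 to 263 in the other 5 WT libraries and 163 to 295 in HT. Without those 3 libraries the list's median was 0.09. Clic6, a chloride channel protein of choroid plexus which fell (log2 change -1.87 ± 0.44, adjusted p = 0.028), followed the same libraries. It was 152, 151 and 196 in them, 10.6 to 28.2 in the other WT libraries and 6.50 to 17.7 in HT, and at -0.71 (adjusted p = 0.417) it did not pass without them. The other choroid plexus and ependymal markers did not follow these libraries alike. Ttr, the transthyretin gene of choroid plexus, was 252 in WT female 3 but 14.2 in WT female 4 and 2.69 in WT male 1, and 67.0 in WT male 4. Kl ran from 52.3 to 127 and Foxj1 from 77.6 to 194 over all 18 libraries, while Folr1 reached at most 12.4 and Kcne2 at most 5.81. Of the 39 lower genes, 12 (30.8%) had their highest WT value in 1 of the 3 libraries, against 20.6% of all genes. The choice of genes with high WT values can favour such a difference.

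Olfactory bulb and blood markers also spread widely, and not among the WT libraries alone. Library means of the olfactory bulb list ran from -1.16 to 0.91 in HT and from -1.03 to 2.18 in WT. Of 21 olfactory bulb markers, none lay above 0, with a median of -0.42, and Pcp4l1 fell (median 1659 in HT, 3364 in WT, log2 change -0.77 ± 0.20, adjusted p = 0.0481). Without the 2 WT libraries of lowest weight the list's median was -0.12, and without all 5 it was 0.05 and the log2 value of Pcp4l1 was -0.08 (adjusted p = 0.967). Cdhr1, a cadherin of mitral cells, was 6397 in WT female 1, 250 to 1313 in the other WT libraries and 404 to 1864 in HT. None of 7 red cell genes passed, with a median of -0.64 and library means of -0.54 to 0.56 in HT and 0.07 to 1.02 in WT. Hbb-bs was 1556 to 4050 in HT and 2807 to 7244 in WT, and as its reads may be shared with other globin genes its value is uncertain. None of 11 markers of claustrum and 12 of thalamus, septum and hypothalamus passed. The part of dissection or blood in the called genes was not tested, beyond the values given without these libraries.

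The genotype change was then set side by side in females and males. In females 4 genes were called (0.024%), of which 2 were higher (0.012%) and 2 lower (0.012%), and 1096 (6.58%) had an unadjusted p under 0.05. The 4 were Shank2 (log2 change -1.18), Gm26793 (4.34), Ccnd1 (-0.65) and Hrk (0.51). In males 668 were called (4.01%), with 486 higher (2.92%) and 182 lower (1.09%). The count in males rested on single libraries: it was 3 without WT male 2, 64 without HT male 2, 218 without HT male 3, 1513 without WT male 4 and 1725 without WT male 1. The count in females was 9 without WT female 2. All 127 genes called over both sexes had the same sign in both, against 49.2% of all genes, which the choice of genes by the mean of both sexes favours. Taken in the direction of that mean, the male change was the larger in 92 of the 127 genes (72.4%, and 88 genes without WT male 2). The share over all genes was 60.8%. In the same direction, the median change was 0.19 in females and 0.32 in males (0.26 in males without WT male 2). Over all genes tested it was 0.05 and 0.12. The difference between the sexes itself was called for 0 genes by limma (2463, or 14.8%, at an unadjusted p under 0.05, smallest adjusted p = 0.249).

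For Shank2 and Ccnd1 the sexes gave like values. Shank2 fell by 1.18 on the log2 scale in females and by 1.04 in males, and Ccnd1 fell by 0.65 and 0.76, and the difference between the sexes did not pass (adjusted p = 0.632 and 0.751). Nexmif, a neuronal X-linked gene, had 0.03 ± 0.09 in females and rose by 0.53 ± 0.09 in males (adjusted p = 0.00195, difference adjusted p = 0.249). The WT males held 1038 (male 2), 1433 (male 3), 1538 (male 4) and 1938 (male 1), the WT females 1845 to 2051 and the HT libraries 1910 to 2186, so that 3 WT males lay below every other library. Over both sexes the log2 change of Nexmif was 0.28 (adjusted p = 0.0261), or 0.20 without WT male 2 (adjusted p = 0.0944).

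Mice given fluoxetine or lithium provide HT and WT libraries whose values did not enter the vehicle difference. They did enter the shared estimate of spread and the minimum mean, and so bore on which genes were called. Of the 127 genes, 112 had the same sign under fluoxetine and 110 under lithium, and 101 under both. The same shares over all genes tested were 58.6, 57.5 and 38.3%. The median size was 0.25 under vehicle, and 0.09 under fluoxetine and 0.06 under lithium in the vehicle direction. As the genes were chosen by their vehicle values, smaller sizes elsewhere can follow from the choice alone, and over all genes the medians were 0.08, 0.02 and 0.02. Passing again were 13 genes under fluoxetine, 4 higher and 9 lower, where 0.222% of all genes were called (0.06% higher, 0.162% lower, 10.5% at an unadjusted p under 0.05). Under lithium 8 passed again, 1 higher and 7 lower, where 0.114% of all genes were called (0.03% higher, 0.084% lower, 7.75% unadjusted). The genotype effect under vehicle differed from that under fluoxetine for 0 genes by limma (1285, or 7.71%, at an unadjusted p under 0.05, smallest adjusted p = 0.492), and from that under lithium for 0 (1218, or 7.31%, smallest adjusted p = 0.331).

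In all 3 treatments, 7 genes were called. Shank2 was lower without overlap in each, with HT at 3877 to 4814 and WT at 8326 to 10776 under fluoxetine, and 3908 to 5006 against 9341 to 11791 under lithium. Gm26793 (log2 changes of 4.73 under fluoxetine and 4.29 under lithium) and Ccnd1 (-0.88 and -0.68) also did not overlap under either drug. The others were Chrnb3 (-0.88 and -1.001), Elmo1, an engulfment adaptor that activates Rac (-0.16 under vehicle, -0.18 and -0.21), Klhdc8a (-0.30, -0.31 and -0.37) and Aldh1a1, a retinaldehyde dehydrogenase (-0.31, -0.38 and -0.34). Elmo1, Klhdc8a and Aldh1a1 were not among the 21 genes called with every library left out.

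Other genes passed again under 1 drug. Hrk rose under fluoxetine without overlap (HT 2993 to 4479, WT 2472 to 2987, log2 change 0.35, adjusted p = 0.00534) and had 0.28 under lithium (adjusted p = 0.0753). Slc44a5 (0.38), Lrrc27 (0.73), Bc1 (-1.17), Stac2 (-0.40) and Pamr1 (-0.35) passed under fluoxetine, and Pcp4 (-0.40) under lithium. Stac2 had -0.37 under lithium and Pcp4 had -0.28 under fluoxetine (adjusted p = 0.112). Grp, which no drug comparison called, had 0.42 and 0.46 beside 0.51 under vehicle. Of the 21 genes called with every library left out, 20 had the vehicle sign under fluoxetine and 18 under lithium. Creg2 (log2 differences of 0 and -0.01 to 2 decimals), Rrp8 (-0.08 and 0.03) and Arl15 (0.09 and -0.03) lay close to 0 under the drugs. Rasgrp2 had -0.15 under fluoxetine and -0.05 under lithium, beside -0.50 under vehicle. Esr1 did not pass with either drug, at 0.40 for fluoxetine (adjusted p = 0.123) and 0.10 for lithium (adjusted p = 0.885), where the WT median was 229, against 164 under vehicle.

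**Figure D4:**
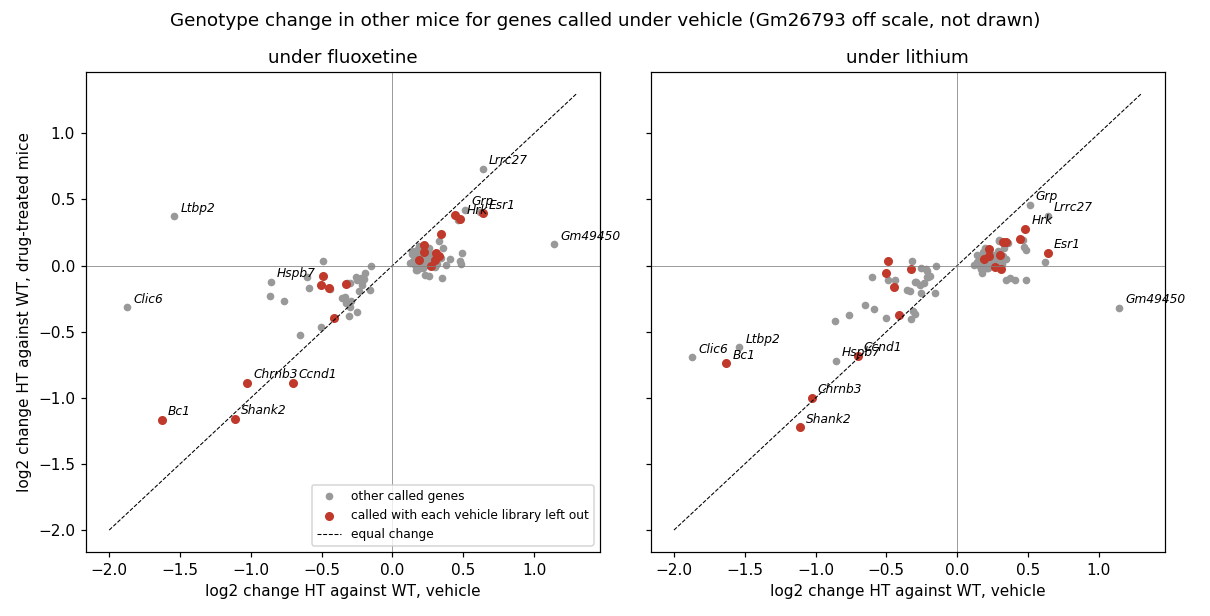
Log2 change between HT and WT under fluoxetine (left) and lithium (right) on the vertical axes against that under vehicle on the horizontal axes, for the called genes other than Gm26793; the dashed line marks equal change. Shank2, Ccnd1 and Chrnb3 lie near the line in both panels, and most other genes lie between it and 0.

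The number of called genes, 127 with all libraries, depended on single libraries. It rose to 394 without WT male 1, 323 without WT male 4, 250 without WT female 2 and 200 without HT female 4. It dropped to 34 without HT female 5, 39 without HT male 3, 46 without WT female 1, 48 without WT male 2, 57 without HT male 4, 59 without HT female 1, 60 without WT female 3, 63 without HT male 2, 66 without HT female 2 and 70 without WT male 3. Of the 48 genes without WT male 2, 39 were among the 127, of which 19 were higher and 20 lower. With the 18 vehicle libraries alone in the fit, 8 genes were called, 4 higher and 4 lower, all among the 127.

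**Figure D5:**
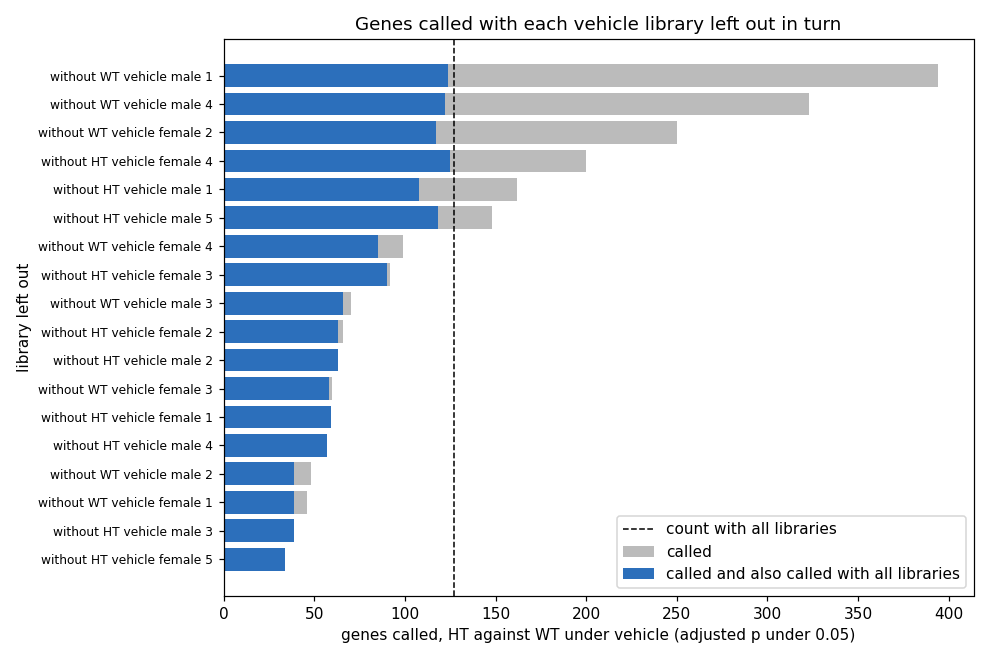
Number of genes called between HT and WT under vehicle (horizontal axis) with each of the 18 libraries left out in turn; blue marks those that were also called with all libraries, and the dashed line is at 127. Removing any of 6 libraries raised the count above 127, and removing any of the other 12 lowered it.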

How the data were processed

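RNA of prefrontal cortex was sequenced in 57 libraries made with a stranded mRNA kit, per the labels' protocols. The deposited table holds signal values, namely estimated counts per gene that the authors normalized between libraries. The submitters' processing notes name Salmon 0.11.2, DESeq2 1.19.11, R 3.6.0 and GRCm38. No source used here gives the annotation release, the filters or the strand setting. Whole reads could not be recovered from the values, so depth is unknown and no counting interval is given. Of 51456 identifiers, 51285 had a symbol and 171 did not.

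Genes with a mean of at least 10 (16659) were tested on log2(value + 1), a scale that understates changes of low genes, with limma 3.58.1 in R 4.3.3. A linear model of 12 groups (genotype, treatment and sex) was fitted to all 57 libraries, with trended and robust moderation. The vehicle effect is the mean of the female and male differences, and a gene was called at a Benjamini-Hochberg adjusted p under 0.05. Every adjusted p in the text is from this limma fit or its stated alternative. The fit was also run on simulated data, in which deviations from group means were shuffled among the groups within each sex. That run cannot show how the uneven WT vehicle libraries affect the calls. Gene positions are from GENCODE vM21 and promoters from RefSeq (GRCm38.p6).

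The members and gene lists were chosen with earlier results of these data known. Named were the Shank genes, the 15 rises and 15 falls of smallest p and the 10 of largest change each way, called neighbours of Shank2, called list members (or those of smallest p), genes called with each library left out, and the leading genes per sex. Genes of these sets that carried no result of their own are not described. Matn2, Ephx1, Elmo1, Klhdc8a, Aldh1a1, Pamr1, LTO1, Mrgprf, Tpcn2, Cttn, Grin2b, Ccnd2, Ccnd3, Nr3c1, Chrna3 and the tissue markers were named after their values were seen. Alternatives were another pseudocount, minimum, scaling, moderation and set of libraries, quality weights, a striatal covariate, a replicate block and each vehicle library left out.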

Additional observations from a re-analysis of the deposited data

Results flagged for a closer look

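In 23 genes, each examined in the HT and the WT vehicle group (46 groups), 3 groups held 1 library that lay far from the rest by Dixon's test. Chance alone gives such a library in about 1 of 20 groups. For Rrp8, HT male 2 held 137.7, and the next lowest HT library 228.9. For Shank1, WT male 2 held 12057, and the next lowest WT library 20637. For Shank3, WT female 1 held 7394, and the next lowest WT library 9068.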

How the results depend on the processing

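Shank2 and Ccnd1 were called under every alternative run. With single vehicle libraries left out, the count of called genes ran from 34 to 394 over both sexes, from 3 to 9 in females, from 3 to 1725 in males, from 0 to 89 for males minus females, from 0 to 1 for vehicle minus fluoxetine and from 0 to 2 for vehicle minus lithium. Shank2 then ran from -1.19 to -1.08. Without a minimum level, 64 genes were called over both sexes, 16 in females and 231 in males. With only the 18 vehicle libraries in the fit the counts were 8 over both sexes, 3 in males and 1 for the sex difference, and the differences from the drug groups could not be run. With quality weights they were 61 over both sexes, 10 in females, 4 in males and 1 for vehicle minus lithium. The striatal covariate gave 175 over both sexes (94 of them among the 127), 11 in females and 725 in males. Replicate numbers showed little sign of pairing the HT and WT vehicle libraries. Of 8 pairs with the same number in their titles, 1 had a correlation of deviations over 0.1 (range -0.18 to 0.16). Of 8 WT libraries, 2 were closest to their own number. So few correlations cannot settle whether the numbers mark shared litters or processing. With the replicate block, 86 genes were called over both sexes, 4 in females, 328 in males and 0 for each difference, and Shank2 was -1.11. The other alternatives were chosen after seeing the data. In 3 WT females the number in the library name differs from that in the title. Paired by library name, 0 of 8 pairs had a correlation over 0.1 (range -0.18 to 0.02), and that replicate block gave 84 genes over both sexes and 318 in males. Without the 3 WT libraries high in striatal markers, 115 were called over both sexes (62 of them among the 127), 8 in females, 1684 in males and 230 for the sex difference. Without the 2 WT libraries of lowest weight, 17 were called (15 among the 127), with 3 in males and 1 for vehicle minus lithium. Without all 5, 9 were called (6 among the 127), with 8 in males, 1 for the sex difference, 1 for vehicle minus fluoxetine and 2 for vehicle minus lithium. Shank1 changed sign without all 5 (-0.0544). Shank3 did so with quality weights (-0.0100), without WT female 1 (-0.0263), without the 2 (-0.0428) and without all 5 (-0.0801), and with single libraries left out it ran from -0.0263 to 0.0578. The cause of these shifts was not tested.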
